A study of Mus musculus with 15 samples.

Results

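The genes described here are 5 connexins (Gjd2, Gja1, Gjb1, Gjb2 and Gjc1) and 2 pannexins (Panx1 and Panx2), measured by RNA sequencing in sorted alpha, beta and delta cells of mouse islets. They were taken by gene symbol from a table of 38283 genes, and all 7 symbols were found once. The study compared purified populations of these 3 endocrine cell types in 15 samples. The 5 alpha and 4 beta samples were sorted from Glu-Venus mice, in which the proglucagon promoter drives the Venus fluorophore, and beta cells were gated by scatter and autofluorescence among cells without Venus. The 6 delta samples were sorted from Sst-CreXROSA26EYFP/EYFP mice, in which Cre under the Sst promoter switches on EYFP, so that any difference of delta cells is also a difference of mouse line. All mice were of the C57BL/6 strain, received no treatment named in the sources used here, and had no age given there. Each sample pooled islets of several mice, so that errors describe variation among pools, and RNA was amplified before libraries were made.

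Connexins are membrane proteins that assemble into hexameric channels, and channels of touching cells dock to form gap junctions through which ions and small metabolites pass. Connexin 36, the product of Gjd2, is known as the connexin that couples beta cells electrically and helps to synchronise their calcium oscillations and insulin release. Connexin 43 (Gja1) is widespread in mesenchymal and endothelial cells, connexin 32 (Gjb1) and connexin 26 (Gjb2) couple pancreatic acinar cells, and connexin 45 (Gjc1) is known from vascular and conducting tissue. Pannexins share the topology of connexins but form channels of a single membrane, and the pannexin 1 channel is known for releasing ATP to the outside of the cell. Pannexin 2 is best known from the nervous system.

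Values are FPKM, in which the reads of a gene are divided by its length and by the total mapped reads of the sample, so that levels can be compared between genes. The depth of 6 samples could be read from the steps of low values and lay between 7.47 M and 30.5 M reads, and that of the other 9 is unknown. Genes above 0 numbered 14761 to 18559 per sample. Gcg, Ins2 and Sst, the glucagon, insulin and somatostatin genes, were highest in the cell type that their label names, although alpha cells held 1.87% and delta cells 1.95% of the Ins2 level of beta cells. The summed FPKM of 82 ribosomal protein genes separated 6 samples (alpha 1, 2 and 3, beta 2, delta 1 and 2), at 65592 to 140956, from the other 9, at 7911 to 38754. This split is referred to below as the higher and the lower ribosomal protein set. The labels name no batch. Ppy, the pancreatic polypeptide gene that marks PP cells, was at 17728 to 41392 FPKM in alpha and 10857 to 48600 FPKM in delta samples but at 16.9 to 98.1 FPKM in beta samples. It was thus far lower in beta cells, in which Gjd2 was highest, and overlapped between alpha and delta cells, between which Panx1 differed, and its part in these results was not tested.

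Across the 7 genes, Gjd2 was by far the highest connexin in all 3 cell types and was higher in beta than in alpha cells. Panx1 was found at several FPKM in every delta sample and below 1 FPKM in every alpha and beta sample. Panx2 ranged from 0.108 to 4.49 FPKM with overlap of all 3 cell types, and Gja1, Gjb1, Gjb2 and Gjc1 were at or close to 0 in all 15 samples. Differences between cell types were tested with limma on log2(FPKM + 1), with p adjusted by Benjamini-Hochberg over 14405 genes, those with a mean above 1 FPKM in a cell type. Of the 7 genes, 3 passed that filter (Gjd2, Panx1 and Panx2). Differences on this scale understate the change of genes with low values. In bulk samples such as these, fewer cells that express a gene and less RNA of it per cell cannot be told apart.

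**Figure D1:**
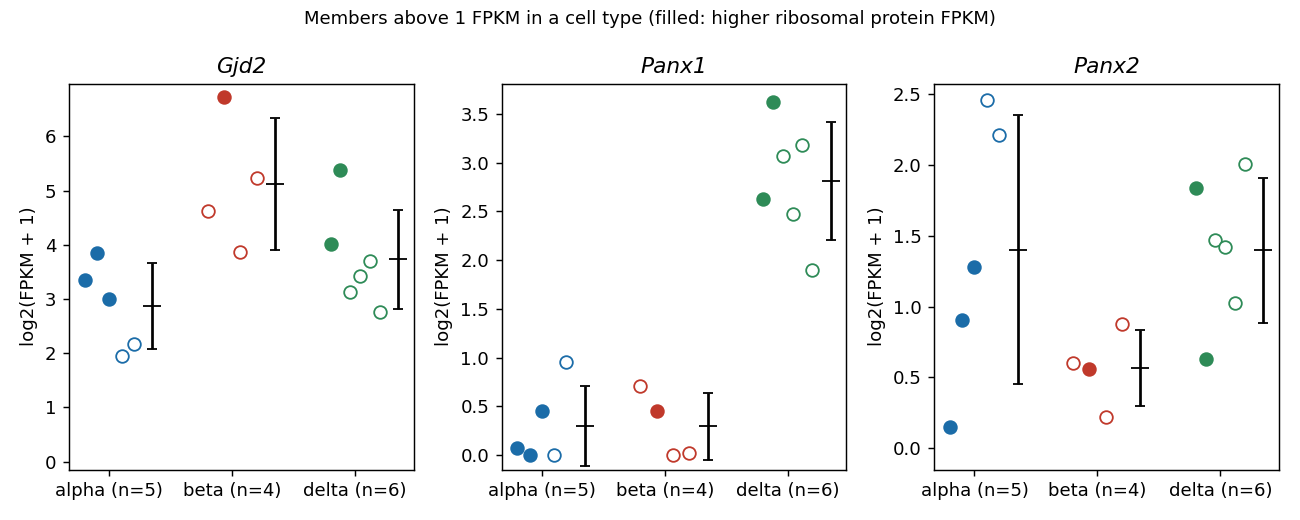
The log2(FPKM + 1) of Gjd2, Panx1 and Panx2 in each alpha (blue, n = 5), beta (red, n = 4) and delta (green, n = 6) sample, with the mean and SD beside the points and the higher ribosomal protein set filled. All beta samples lie above all alpha samples for Gjd2, and all delta samples lie above all others for Panx1.

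Gjd2 lies on the reverse strand at chr2:114009601-114013619 (GRCm38, GENCODE M21) with a single annotated transcript (2879 nt, 2 exons). In alpha cells it was at 9.21, 13.3, 6.99, 2.87 and 3.50 FPKM in samples 1 to 5. Beta cells had 23.7, 105, 13.5 and 36.6 FPKM in samples 1 to 4. Alpha and beta samples did not overlap, although the lowest beta sample (13.5 FPKM) was just above the highest alpha sample (13.3 FPKM). Of 14405 genes tested, 1170 had alpha and beta samples without overlap, in either direction. In delta cells Gjd2 ranged from 5.73 to 40.4 FPKM with a median of 10.8 FPKM, which overlapped both other types. The means were 7.18 ± 4.30 FPKM (SD, n = 5) in alpha, 44.8 ± 41.5 FPKM (SD, n = 4) in beta and 15.1 ± 12.8 FPKM (SD, n = 6) in delta cells. The beta mean was thus 6.24 times the alpha mean and 2.97 times the delta mean. Without beta 2 these ratios were 3.43 and 1.63, and without delta 2 the ratio of beta to delta was 4.47. Alpha cells held 16.0% and delta cells 33.7% of the beta mean of Gjd2, or 29.2% and 61.3% without beta 2, against the 1.87% and 1.95% given above for Ins2. The part of beta cells carried over in the sort in these levels was not tested.

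Gjd2 rose from alpha to beta cells by 2.25 on the log2 scale (SE 0.61, 95% interval 0.95 to 3.55, limma adjusted p = 0.0339). It was the 1 of the 3 tested genes to be called in this comparison, in which 7.66% of all genes tested were called. A two-sided exact permutation test of the 4 beta against the 5 alpha samples gave p = 0.0159, the smallest value these numbers of samples allow. Delta minus alpha was 0.87 (SE 0.55, 95% interval -0.30 to 2.03, limma adjusted p = 0.499) and delta minus beta was -1.39 (SE 0.59, 95% interval -2.63 to -0.14, limma adjusted p = 0.132), neither of which passed the threshold of 0.05. In the order of mean levels, delta cells thus lay between alpha and beta cells, and neither step passed the threshold in this fit. The test over all 3 cell types called Gjd2 (limma F-test, adjusted p = 0.0468) and Panx1, where 16.0% of all genes were called.

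The beta against alpha call of Gjd2 was close to the threshold and was lost when any of 6 samples was left out. The limma adjusted p was 0.0516 without alpha 3, 0.0640 without alpha 4, 0.0693 without alpha 5, 0.0560 without beta 1, 0.0687 without beta 2 and 0.0909 without beta 4. The log2 difference remained between 1.71, without beta 2, and 2.67, without beta 3. The F-test call of Gjd2 was kept in 3 of the 15 cases in which 1 sample was left out (alpha 2, beta 3 or delta 2).

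The spread of Gjd2 within each cell type followed the ribosomal protein sets. In the higher set, Gjd2 was at 6.99 to 13.3 FPKM in 3 alpha samples, at 15.1 and 40.4 FPKM in 2 delta samples and at 105 FPKM in the only beta sample. In the lower set it was at 2.87 and 3.50 FPKM in 2 alpha samples, at 5.73 to 11.9 FPKM in 4 delta samples and at 13.5 to 36.6 FPKM in 3 beta samples. Within each cell type, every sample of the higher set was above every sample of the lower set. This was not particular to Gjd2. The same held for the housekeeping genes Hprt, Ppia, Eef1a1, Pgk1, Tubb5 and Psmb2, but not for others such as Actb. The share of all genes for which it holds was not computed. In both sets alpha was below delta and delta below beta without overlap. Of all genes tested, 1.65% had the 3 cell types apart and in the same order in both sets, and 23 genes (0.16%) had the order of Gjd2. The limit between the sets was chosen after the values were seen.

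With the set of the samples as a covariate, the limma adjusted p of Gjd2 was 0.000225 for beta minus alpha (2.80), 0.0281 for delta minus alpha (1.28) and 0.00713 for delta minus beta (-1.52). In that fit all 3 pairs of cell types were called for Gjd2. What the ribosomal protein sets stand for was not tested.

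**Figure D2:**
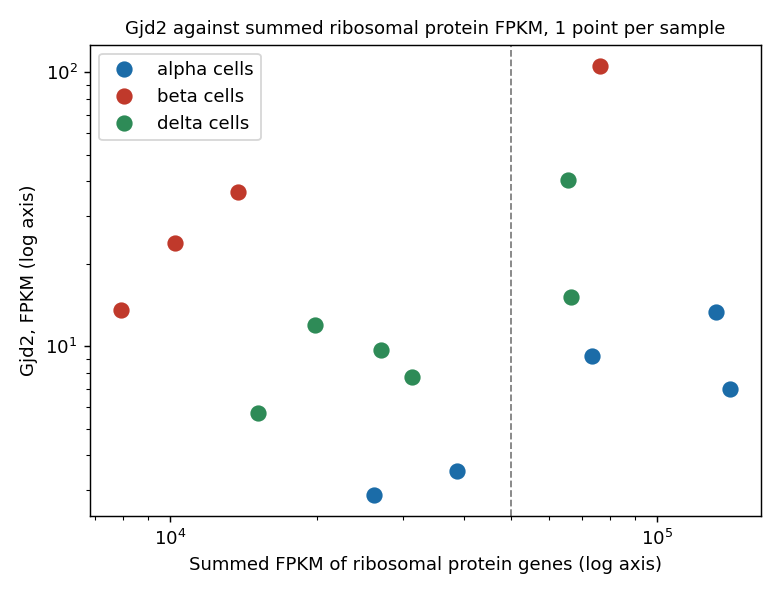
Gjd2 in FPKM (y axis, log) against the summed FPKM of 82 ribosomal protein genes (x axis, log), 1 point per sample, with the dashed line at 50000 FPKM between the sets. On each side of the line the alpha points lie lowest and the beta points highest.

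Gjd2 starts head to head with A530058N18Rik, a noncoding transcript on the opposite strand whose deposited value was examined after that of Gjd2 was seen. A530058N18Rik (chr2:114013602-114032292, forward strand, GRCm38) shares 18 nt of exon with Gjd2. A second gene model of the same symbol, chr2:114013563-114068324, shares 57 nt and was at most at 0.170 FPKM in any sample. The 250 bases upstream of Gjd2 and, for comparison, of Panx1 are printed because they are the start regions of the 2 members whose levels differed between cell types. They come from the RefSeq promoters of GRCm38.p6, which hold 5 of the 7 genes, and are written on the strand of the gene with the 5 letters TGACG, or CGTCA as their reverse complement, in capitals. The Gjd2 sequence is chr2:114013620-114013869 and that of Panx1 is chr9:15045479-15045728, both read on the reverse strand.
Gjd2: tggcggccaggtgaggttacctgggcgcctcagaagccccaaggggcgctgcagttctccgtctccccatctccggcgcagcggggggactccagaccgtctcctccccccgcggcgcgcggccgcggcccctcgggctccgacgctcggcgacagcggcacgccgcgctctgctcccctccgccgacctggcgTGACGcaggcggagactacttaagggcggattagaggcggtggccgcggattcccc
Panx1: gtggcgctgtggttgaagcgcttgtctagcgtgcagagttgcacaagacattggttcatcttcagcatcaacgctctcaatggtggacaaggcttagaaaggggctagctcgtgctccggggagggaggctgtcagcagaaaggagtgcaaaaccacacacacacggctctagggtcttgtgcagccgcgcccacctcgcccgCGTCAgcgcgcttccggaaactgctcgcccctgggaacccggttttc
G and C made up 74.0% of the Gjd2 sequence and 59.6% of the Panx1 sequence, against a median of 52.4% over 32851 promoters. TGACG, the core of the cyclic AMP response element, was searched on both strands and matched once in each. The match began 56 bases upstream of Gjd2 and 47 bases upstream of Panx1, and 17.8% of all promoters hold one. Of 3 other motifs searched on both strands, GGGCGG (in 32.7% of promoters) and CANNTG (in 66.2%) matched once each in Gjd2 and not in Panx1, and TATAAA (in 12.4%) matched in neither.

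A530058N18Rik was at 13.3, 20.8, 14.8, 1.44 and 4.46 FPKM in the 5 alpha samples and at 21.3, 96.8, 12.6 and 35.5 FPKM in the 4 beta samples. In the 6 delta samples it lay between 6.09 and 17.4 FPKM. Its FPKM was 0.897 to 0.972 times that of Gjd2 in every beta sample, 0.501 to 2.11 times in alpha and 0.431 to 1.27 times in delta cells. Over the 15 samples its Pearson correlation with Gjd2 was 0.90, sixth of 14404 genes. The kit is not stated to keep the strand, so that reads in the shared 18 nt, or 57 nt with the second model, cannot be assigned to one gene. Beta and alpha samples overlapped for A530058N18Rik, and beta minus alpha was 1.81 on the log2 scale (SE 0.66, limma adjusted p = 0.105), which did not pass the threshold.

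**Figure D3:**
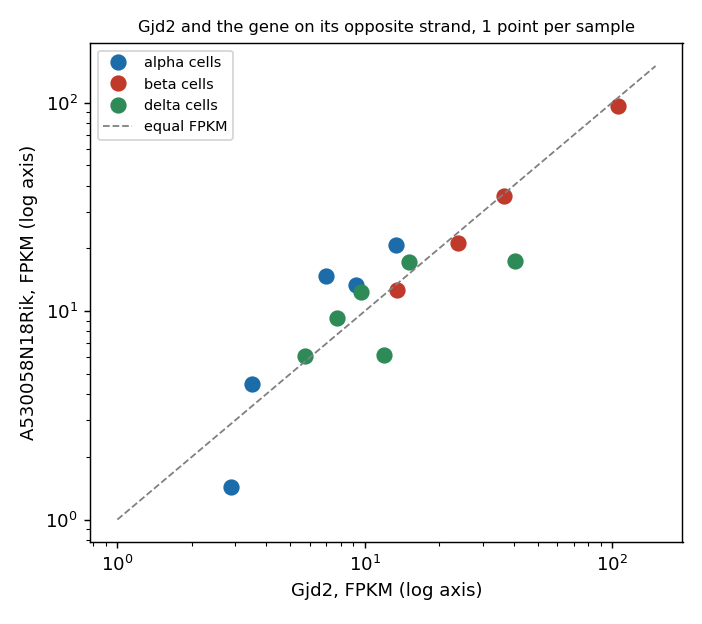
FPKM of A530058N18Rik (y axis, log) against FPKM of Gjd2 (x axis, log), 1 point per sample, with equal values on the dashed line. The 4 beta points lie just below the line at ratios of 0.897 to 0.972, and alpha and delta points scatter on both sides.

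The genes whose values over the 15 samples were most like those of Gjd2, by Pearson correlation of log2(FPKM + 1), were Degs1, a dihydroceramide desaturase (0.94), Atp2c1, a calcium and manganese pump of the Golgi (0.91), Akr1c12, an aldo-keto reductase (0.91), Zdhhc2, a palmitoyltransferase (0.91), and the unnamed gene AC107641.1 (0.90). In all 5, as in Gjd2, the mean was highest in beta and lowest in alpha cells. Degs1, for example, had a mean of 37.6 FPKM in alpha, 191 FPKM in beta and 56.9 FPKM in delta cells. Samples of a cell type and of a ribosomal protein set contribute to such likeness, so it is given as a description.

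The other 4 connexins were close to absent in the table. Gjb1 (chrX:101376378-101385629, GRCm38) was listed at 0 in all 15 samples. Gjb2 (chr14:57098600-57104702) was listed at 0.0686 FPKM in delta 4 and at 0 in the other 14 samples. In the 6 samples of known depth, 3 reads of Gjb2 would amount to between 0.0446 and 0.182 FPKM, a limit that covers counting error only. In delta 4 they would amount to 0.0538 FPKM, which is below the value listed there. Gja1 (chr10:56377330-56402513) was at 0.00562 FPKM in alpha 4, at 0.0140 FPKM in delta 4 and at 0 elsewhere. Gjc1 (chr11:102799579-102819700) was above 0 in 5 samples. Its values there were 0.0618, 0.0103 and 0.145 FPKM in alpha 2, 4 and 5, 0.0154 FPKM in beta 1 and 0.0900 FPKM in delta 2.

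These 4 genes did not reach the filter for limma. With so few values above 0, no comparison between cell types is drawn for them. For comparison, all of 20 housekeeping genes were above 0 in every sample, with a lowest value of 1.35 FPKM.

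These connexins are known from cells that a sort of islet cells could carry along, so the markers of such cells are given beside them. The summed FPKM of 8 acinar markers ran from 8.17 to 84.1 in alpha, from 0.0283 to 12.7 in beta and from 90.1 to 580 in delta samples, with Amy2a5 at 0 in all 15. The acinar connexins Gjb1 and Gjb2 had the values just given, at most 0.0686 FPKM, also in the delta samples. That value was from delta 4, the sample with the highest acinar sum, and the part of acinar RNA in it was not tested. The summed FPKM of 6 mesenchymal and stellate markers was 0.848 to 3.79 in alpha samples and at most 0.101 in beta and delta samples. Nearly all of the alpha sum was Col1a2, and of the other 5 Col1a1 and Pdgfra were at 0 throughout. The 5 endothelial markers summed to at most 6.17 FPKM, most of it from Esam. Gja1 reached at most 0.0140 FPKM in any sample.

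Of the 16 further connexin and pannexin genes in the table, none had a mean above 1 FPKM in any cell type and 7 were at 0 in all samples. Gje1 (0.111 to 0.820 FPKM) and Gjc3 (0.0658 to 0.319 FPKM) were above 0 in every sample. Gjd2 made up 92.3 ± 6.03% (SD, n = 5) of the summed FPKM of all 20 connexin genes in alpha, 97.3 ± 1.32% (SD, n = 4) in beta and 94.7 ± 1.79% (SD, n = 6) in delta cells. The lowest share in a sample was 82.3%, in an alpha sample. The 19 other connexins together reached at most 1.10 FPKM in any sample.

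**Figure D4:**
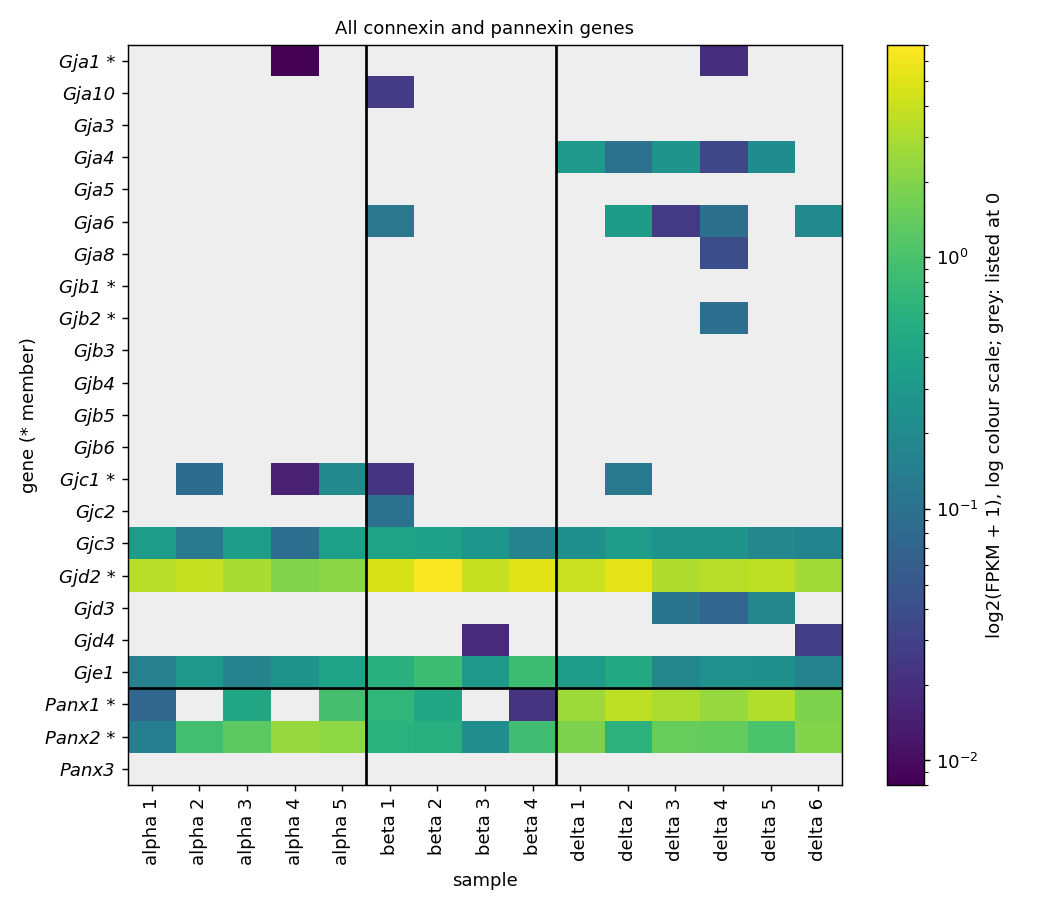
The log2(FPKM + 1) of 20 connexin and 3 pannexin genes (rows, the 7 described here with an asterisk) in 15 samples (columns, grouped by cell type), on a logarithmic colour scale with grey for values listed at 0. Among connexins Gjd2 is the only row at high values in all samples, and Panx1 is bright in delta samples.

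Panx1 lies on the reverse strand at chr9:15002128-15045478 (GRCm38) and has 4 annotated transcripts, the longest of 5732 nt in 5 exons. It was at 0.0533, 0, 0.366, 0 and 0.939 FPKM in alpha samples 1 to 5. In beta samples 1 to 4 it was at 0.630, 0.367, 0 and 0.0158 FPKM. In delta samples 1 to 6 it was at 5.17, 11.3, 7.40, 4.56, 8.07 and 2.72 FPKM. The lowest delta sample was thus above the highest alpha and the highest beta sample, while alpha and beta samples overlapped fully. Of 14405 genes tested, 957 had no overlap between delta and alpha samples and 2150 none between delta and beta samples, in either direction. The delta mean of 6.54 ± 3.05 FPKM (SD, n = 6) was 24.1 times the alpha mean of 0.272 ± 0.403 FPKM (SD, n = 5) and 25.8 times the beta mean of 0.253 ± 0.303 FPKM (SD, n = 4). These ratios rest on few values above 0 and were 62.5 without alpha 5 and 51.3 without beta 1.

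Panx1 in delta cells exceeded alpha cells by 2.52 on the log2 scale (SE 0.32, 95% interval 1.83 to 3.20, limma adjusted p = 7.55e-05). Delta minus beta was also 2.52 (SE 0.34, 95% interval 1.79 to 3.24, limma adjusted p = 0.000119). Of the 3 tested genes it was the 1 called in each of these comparisons, in which 6.81% and 14.7% of all genes were called. Both comparisons share the delta samples. Two-sided exact permutation tests gave p = 0.00433 against alpha and p = 0.00952 against beta cells, the smallest values possible with these numbers of samples. Beta minus alpha was 0.00 (95% interval -0.76 to 0.75, limma adjusted p = 1). The limma adjusted p over the 3 cell types was 3.71e-05.

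Both Panx1 differences were called under all 11 alternatives of the processing and without each of the 15 samples. In the higher ribosomal protein set Panx1 was at 5.17 and 11.3 FPKM in 2 delta samples, and in the lower set at 2.72 to 8.07 FPKM in 4 delta samples. No alpha or beta sample of either set passed 0.939 FPKM. Alpha cells had 4.15% (1.60% without alpha 5) and beta cells 3.87% (1.95% without beta 1) of the delta level of Panx1, while they had 0.992% and 0.101% of the delta level of Sst. The part of carried-over delta cells in these levels was not tested. The acinar markers were also higher in delta than in other samples, by the sums given above, and their part in the Panx1 difference was not tested. Mouse line and cell type cannot be told apart for delta cells.

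The genes most like Panx1 over the 15 samples were Capg, an actin-capping protein (Pearson correlation 0.97), Tmem200a (0.97), Gpa33, a cell surface antigen of gut epithelium (0.97), Ghsr, the ghrelin receptor (0.96), and Luzp2 (0.96). All 5 had means of several FPKM in delta cells and below 1 FPKM in alpha and beta cells. They were chosen by their likeness to Panx1 in these same samples, so this pattern follows from the choice and is given as a description. Ghsr, for instance, had a mean of 11.7 FPKM in delta, 0.158 FPKM in alpha and 0.0216 FPKM in beta cells.

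Panx2 (chr15:89059734-89073567, forward strand, GRCm38) was at 0.108, 0.872, 1.43, 4.49 and 3.63 FPKM in alpha samples 1 to 5. In beta samples 1 to 4 it was at 0.520, 0.476, 0.166 and 0.834 FPKM. In delta samples it ranged from 0.545 to 3.02 FPKM with a median of 1.72 FPKM. All 3 cell types overlapped. The antisense gene 1810021B22Rik overlaps the span of Panx2 on the opposite strand but shares no exon with it.

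No difference of Panx2 passed the test over the 3 cell types (limma F-test, adjusted p = 0.294). Beta minus alpha was -0.83 (95% interval -1.76 to 0.09, limma adjusted p = 0.269), delta minus beta was 0.83 (95% interval -0.06 to 1.72, limma adjusted p = 0.209) and delta minus alpha was 0.00 (95% interval -0.84 to 0.83, limma adjusted p = 1). The two-sided exact permutation test of delta against beta cells alone gave p = 0.0190 for Panx2, where the smallest possible p is 0.00952 and p is not adjusted for the 17 comparisons made. In alpha cells Panx2 had a mean of 0.803 FPKM in the 3 samples of the higher and 4.06 FPKM in the 2 samples of the lower ribosomal protein set, the opposite order to Gjd2 in the same samples. Within the lower set alone, an alternative added after the data were seen, beta minus alpha of Panx2 was -1.77 and was called (limma adjusted p = 0.0196).

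Panx1 made up 14.8 ± 14.4% (SD, n = 5) of the summed pannexin FPKM in alpha and 75.4 ± 17.1% (SD, n = 6) in delta cells. In beta samples 1 to 4 the share was 54.8%, 43.6%, 0% and 1.86%. Delta samples ranged from 47.4% to 95.4% and the highest beta sample was at 54.8%, so that delta and beta samples overlapped in this share. Panx3 was at 0 in all samples.

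**Figure D5:**
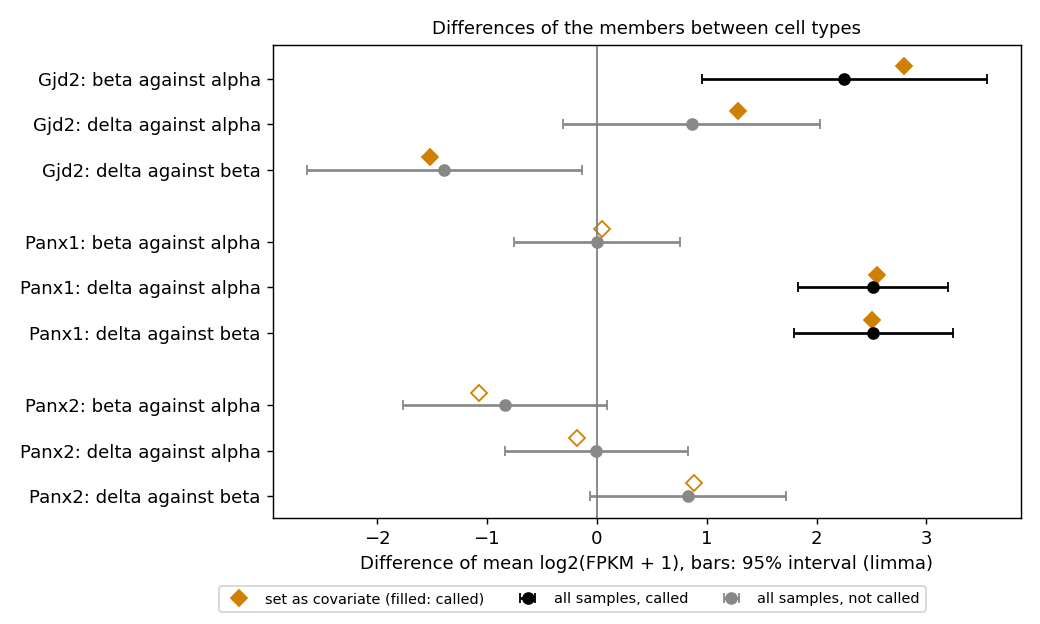
Differences of mean log2(FPKM + 1) between cell types for Gjd2, Panx1 and Panx2, with 95% intervals from limma (x axis), black where the adjusted p was under 0.05 and grey where it was not. Orange diamonds give the difference with the ribosomal protein set as a covariate, filled where called, and differ in call from the fit without it only for the delta comparisons of Gjd2.

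Gap junctions are tied to the junctional scaffold and to cadherin contacts, and 9 of 10 genes of that list were tested. None was called between beta and alpha cells, where 7.66% of all genes were called and the median difference of the 9 was 1.02 against -0.13 over all genes tested. In delta against alpha cells none was called lower, and the median was 0.95 against 0.13 over all genes, of which 6.81% were called. Cdh1 (E-cadherin) was higher in delta cells by 2.13 (limma adjusted p = 0.0168) and Nov (a secreted matricellular protein reported to bind connexin 43) by 1.70 (adjusted p = 0.000434). Only Nov was called in delta against beta cells (1.74, limma adjusted p = 0.000501), where 14.7% of all genes were called and the median was 0.70 against 0.30 over all genes. Nov had a mean of 2.62 FPKM in delta cells and of 0.0672 FPKM in alpha and 0.0367 FPKM in beta cells. Tjp1, which encodes ZO-1, the best known scaffold partner of connexins, was at 12.8 ± 7.98 FPKM (SD, n = 5) in alpha, 27.2 ± 16.3 FPKM (SD, n = 4) in beta and 17.4 ± 5.61 FPKM (SD, n = 6) in delta cells and was called in no pair.

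Of the other large-pore channels, 5 of 10 genes were tested. Lrrc8b, a subunit of the volume-regulated anion channel, in delta cells exceeded alpha cells by 2.31 (limma adjusted p = 0.000518) and beta cells by 3.05 (adjusted p = 5.72e-05), at a mean of 8.57 ± 2.88 FPKM (SD, n = 6) in delta cells. For Lrrc8d, another subunit, delta minus alpha was 1.69 (limma adjusted p = 0.0122). Calhm2, of the calcium homeostasis modulator family, was the other gene called between delta and beta cells, higher in delta by 1.18 (limma adjusted p = 0.00882). None was called between beta and alpha cells, but Calhm2 was called there with median-ratio size factors (-0.82, limma adjusted p = 0.0388) and quantile normalization (-0.80, 0.0444), and Lrrc8d with median-ratio size factors (1.35, 0.0364). The medians of the 5 were -0.74 for beta minus alpha, 0.80 for delta minus alpha and 1.18 for delta minus beta, against -0.13, 0.13 and 0.30 over all genes. The shares of all genes called were 7.66%, 6.81% and 14.7%.

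ATP released through pannexin channels acts on purinergic receptors and is broken down outside the cell, and 9 of 24 rows of such receptors and ectoenzymes were tested. Between beta and alpha cells 4 were called higher and 1 was called lower in beta cells, and the median of all 9 was 1.13 against -0.13 over all genes, of which 7.66% were called. P2ry1, a receptor for ADP, was higher by 3.40 (limma adjusted p = 0.000163), P2ry6, a receptor for UDP, by 2.59 (adjusted p = 0.000136), and Adora3, an adenosine receptor, by 2.55 (adjusted p = 0.0173). Adora3 is listed in 2 rows, and this value is from ENSMUSG00000074344 (6.34 to 72.9 FPKM in beta samples), while ENSMUSG00000000562 had a beta mean of 0.419 FPKM, was at 0 in all alpha samples and did not reach the filter. The other 2, named after their values were seen, were Entpd3, an ectonucleotidase, at 1.63 and Adora2a, an adenosine receptor, at -1.81. In delta against alpha cells P2ry1 (2.74), Adora1 (2.07) and Entpd3 (1.67) were called higher and none was called lower, with a median of -0.01 against 0.13 over all genes (6.81% called). P2rx4, an ATP-gated channel, was at -1.22 (limma adjusted p = 0.140) and was called lower with median-ratio size factors (0.0208) and quantile normalization (0.0170). In delta against beta cells Adora2a was called higher (1.71) and P2ry6 (-1.79) and Adora3 (-3.27) were called lower, with a median of -0.58 against 0.30 over all genes (14.7% called). P2ry1 had a mean of 14.3 FPKM in beta and 8.87 FPKM in delta cells against 0.314 FPKM in alpha cells.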

How the data were processed

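RNA of 15 sorted samples was analysed. The authors amplified RNA with a NuGEN kit, sequenced 50 nt reads, aligned them to GRCm38 with TopHat (2.0.11 in the methods, 2.0.8 in the submitters' processing notes) and deposited Cufflinks 2.2.1 FPKM per gene, with 1 column per sample. The annotation release is not given in the sources used here. Their edgeR test used counts, which were not used here, so limma took its place. The 7 genes and the lists were chosen with earlier results of these data known.

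limma 3.58.1 in R 4.3.3 (lmFit, eBayes with a trend) was fitted to log2(FPKM + 1) of all 15 samples without covariate, for 14405 genes with a mean above 1 FPKM in a cell type, and called at a Benjamini-Hochberg adjusted p under 0.05. It was tested on simulated data. Members were also compared by two-sided exact permutation tests (SciPy 1.17.1, 17 comparisons, unadjusted), of which the 8 of genes below the filter were left out because too few values were above 0. Python 3.11.15 with numpy 2.4.6, pandas 2.3.3 and matplotlib 3.10.9 did the rest. Gene models are from GENCODE M21 (GRCm38), with an entry for 36341 of the table's genes, and promoters from RefSeq. Depth was read from the common step of low values, over 5024 genes with a single transcript above 1000 nt (less 200 nt each).

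Named genes are the 7 members, up to 4 called genes of each related list by the size of their difference, and the 5 genes most correlated with each member called in the F-test. Tjp1, A530058N18Rik, Entpd3, Adora2a, P2ry12 and P2rx4 were named after their values were seen. A gene of the scaffold list is not reported here. Alternatives were a pseudocount of 0.1, other filters, median-ratio and quantile scaling, fits of 2 cell types only, the replicate number as a block, the ribosomal protein set as a covariate, no trend, and leaving out each sample. A fit of the lower set alone and ratios of means without each sample were added after the data were seen.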

Additional observations from a re-analysis of the deposited data

Results flagged for a closer look

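Of 15 sets of values of the members in a cell type, 6 had a sample far from the others by Dixon's criterion at 95%, where chance gives about 0.75 (1 in 20). Gjd2 was at 40.4 FPKM in delta 2, against 15.1 FPKM in the next sample. The other 5 are single values above 0 in a cell type that was otherwise listed at 0, so the criterion was met by any such value. They were Gja1 at 0.00562 FPKM in alpha 4 and at 0.0140 FPKM in delta 4, Gjb2 at 0.0686 FPKM in delta 4, and Gjc1 at 0.0154 FPKM in beta 1 and 0.0900 FPKM in delta 2. Delta 4 held 2 of these values and is among the samples with the most genes above 0 (18559). It also had the highest sum of the 8 acinar markers (580 FPKM), and the part of acinar RNA in its Gjb2 value was not tested.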

How the results depend on the processing

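Over all alternatives and samples left out, 202 of 230 log2 differences of Gjd2, Panx1 and Panx2 kept their direction and call, 8 lost their call, 6 gained one and 14 changed sign. All sign changes were in differences that were never called, namely beta minus alpha of Panx1 and delta minus alpha of Panx2. With a pseudocount of 0.1 these were 0.083 and 0.24. Beta minus alpha of Panx1 was 0.040 with median-ratio size factors, 0.022 with quantile normalization, 0.043 with the ribosomal protein set as a covariate and 0.10 with the replicate number as a block. Without filter on low values, 1 member was called across the 3 types and 0 between beta and alpha, where Gjd2 (2.25) had a limma adjusted p of 0.0594. A fit of beta and alpha cells alone called 407 genes and 0 members, with Gjd2 at 2.25 (limma adjusted p = 0.0902). With genes above 5 FPKM only, 1450 genes were called across the types, 518 for delta against alpha and 1319 for delta against beta, where fewer genes were tested. Beta against alpha calls rose to 2078 with median-ratio factors and to 1970 with quantile normalization. Delta minus beta of Gjd2 was called, which made 2 members, with median-ratio factors (-1.78, limma adjusted p = 0.00937), quantile normalization (-1.58, 0.0199), the set covariate (-1.52, 0.00713) and the lower set alone (-1.33, 0.0390). Delta minus alpha of Gjd2 was called with the set covariate (1.28), which also made 2 members. In the lower set alone, 629 genes were called for delta against alpha, and Panx2 at -1.77 brought the members called for beta against alpha to 2. The share of Gjd2 among the connexin members alone was 99.0% in alpha, 99.98% in beta and 99.8% in delta cells. Leaving out 1 sample gave 1 to 2 members across the types, 0 to 1 members and 651 to 1698 genes between beta and alpha, and log2 differences of 1.71 to 2.67 for Gjd2 and -0.14 to 0.16 for Panx1 between beta and alpha, and of -0.32 to 0.26 for Panx2 between delta and alpha. The cause of these changes was not tested.

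Higher calls were 37.0% of all calls for beta against alpha, 78.3% for delta against alpha and 79.6% for delta against beta, and became 52.7%, 67.8% and 51.5% with median-ratio factors and 47.6%, 56.8% and 50.9% with quantile normalization. The share for beta against alpha was 60.1% without beta 3, 20.8% without beta 2 and 14.6% in the lower set alone, where that for delta against beta was 91.1%. The median of all genes moved from -0.13, 0.13 and 0.30 to 0.00, 0.00 and 0.02 with median-ratio factors. Of 19 calls in the related lists, all kept their direction and 18 their call under both scalings. Both scalings also called Calhm2 and P2ry12 between beta and alpha, P2rx4 between delta and alpha and P2ry12 between delta and beta, and median-ratio factors called Lrrc8d and Adora1 between beta and alpha. Panx2 was not tested above 5 FPKM and Panx1 not in the fit of beta and alpha cells alone. Same-numbered samples had a mean correlation of 0.0761 over 13 pairs, with 5 above 0.1, so the numbers were not taken as pairs. Pairs with delta samples join different mouse lines. Between alpha and beta samples, both from Glu-Venus mice, the correlations were -0.039, 0.27, -0.15 and 0.073 for numbers 1 to 4. Whether alpha and beta samples shared pools of mice is not stated, and the tests took them as independent. The replicate number as a block left every call of a member as it was. The unknown depth of 9 samples leaves the zeros of low connexins without a limit there.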
